A study of Mus musculus with 18 samples.

Results

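CP110 and the centriole duplication machinery were followed as 10 named genes among the 55450 in the table: Ccp110, Cep97, Neurl4, Plk4, Sass6, Stil, Cep135, Cep152, Cep192 and Pcnt. They were matched by symbol in the deposited RNA-Seq table, by a rule that uses no measured value. ED1SQ4 is a cell line from the lung cancer of a mouse carrying a cyclin E transgene, whose promoter is not given in the sources used here. All the cells carried that transgene. Cells received vehicle or 0.5 µM CYC065 (fadraciclib), an inhibitor of CDK2 and CDK9, for 72 hours. Each treatment gave an unsorted sample and, after staining of DNA with a green dye, a sorted 2N and a sorted 4N sample. A gate on DNA content takes in G2 and mitotic cells beside tetraploid ones. The 3 replicates labelled for each of the 6 conditions carried a single library number and a part number, and they differed by no more than sampling noise in genes with whole counts. They were therefore summed and counted as 1 sample per condition (n = 1), so no test between conditions and no replicate error could be given. Every interval below covers counting error only.

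A centrosome holds a pair of centrioles in a cloud of pericentriolar material, and each centriole is copied once per cell cycle, beginning around the onset of S phase. PLK4 is the kinase that starts the new centriole, STIL and SAS-6 build its cartwheel with it, and CEP152 and CEP192 bring PLK4 to the parent centriole. CP110 and CEP97 cap the far end of the centriole, and CP110 is a substrate of CDK2. Cells that divide with extra or unclustered centrosomes can form multipolar spindles, which is why these genes bear on the study's question of what CDK2 inhibition does to dividing lung cancer cells.

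Promoter sequences are shown for the genes that the comparisons below turn on, Plk4, Sass6 and Stil, and for Ccp110. The levels of Ccp110 differed less between CYC065 and vehicle. RefSeq (GRCm38.p6) windows of 250 bases before to 50 bases after the start were used for 9 of the 10 genes. Cep192 was left out of the motif search by choice. The 9 RefSeq starts lay 0 to 126 bases from the nearest transcript start of the annotation used for the counts. Each window is printed 5′ to 3′ along the gene. Capitals mark matches on either strand to TTTGAA or TTCGAA (the cell cycle gene homology region, CHR), GCGGGAA (an E2F form) or CCAAT (bound by NF-Y). The windows are, in order, chr3:40799701-40800000 on the plus strand, chr3:116594708-116595007 on the plus strand, chr4:114999868-115000167 on the plus strand and chr7:118712293-118712592 on the plus strand.
Plk4: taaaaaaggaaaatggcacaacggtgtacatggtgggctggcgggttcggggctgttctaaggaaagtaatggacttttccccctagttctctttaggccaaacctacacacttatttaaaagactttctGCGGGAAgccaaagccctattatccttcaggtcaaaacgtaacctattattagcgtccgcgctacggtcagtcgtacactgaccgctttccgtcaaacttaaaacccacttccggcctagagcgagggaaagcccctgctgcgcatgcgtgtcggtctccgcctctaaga
Sass6: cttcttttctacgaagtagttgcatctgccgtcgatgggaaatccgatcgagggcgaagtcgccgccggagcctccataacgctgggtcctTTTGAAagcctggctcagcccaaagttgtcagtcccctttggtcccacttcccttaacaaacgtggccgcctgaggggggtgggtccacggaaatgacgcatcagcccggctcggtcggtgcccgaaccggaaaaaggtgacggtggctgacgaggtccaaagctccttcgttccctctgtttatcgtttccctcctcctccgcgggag
Stil: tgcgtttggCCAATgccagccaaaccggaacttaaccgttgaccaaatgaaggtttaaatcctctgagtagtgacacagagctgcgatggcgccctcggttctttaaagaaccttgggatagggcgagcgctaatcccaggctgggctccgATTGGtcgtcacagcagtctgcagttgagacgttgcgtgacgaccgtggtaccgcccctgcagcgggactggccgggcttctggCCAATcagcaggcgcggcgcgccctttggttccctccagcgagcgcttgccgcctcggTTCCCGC
Ccp110: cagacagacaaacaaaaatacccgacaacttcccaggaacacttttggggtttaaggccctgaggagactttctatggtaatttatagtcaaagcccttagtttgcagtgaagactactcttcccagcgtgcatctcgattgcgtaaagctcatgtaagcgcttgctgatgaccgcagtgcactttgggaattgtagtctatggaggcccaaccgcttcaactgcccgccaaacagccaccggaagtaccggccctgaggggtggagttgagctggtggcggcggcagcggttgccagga

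Plk4 held 1 E2F match on its own strand, first base at position -120 from the start. Stil held 1 E2F match on the opposite strand at position 44 and 3 NF-Y matches at positions -241, -99 and -15. Sass6 held a CHR match at position -159, and Ccp110 held none of the motifs. Over the 9 windows, E2F matches stood in 4 (Plk4, Stil, Cep152, Pcnt), against 4.60% of all 32851 RefSeq windows. NF-Y matches stood in 5 of 9 (Cep97, Stil, Cep135, Cep152, Pcnt), against 37.4% of windows, and the 2 in Cep97 overlapped each other. CHR matches stood in 2 of 9 (Sass6, Cep152), against 19.2%. G and C made up 48.7% to 66.7% of the 9 windows (60.7% in Stil, 64.3% in Cep152, 61.3% in Pcnt and 50% in Plk4). The median over all windows was 52.7%, and the shares above were not matched for it. A match is a string of letters in a window and was not tested as a binding site.

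The 6 libraries held 54750203 to 62795507 counts, and the 10 genes took 336 to 11512 counts each. Levels are given in CPM, a gene's count relative to the size of its library, after TMM scaling of the 6 libraries, with Poisson intervals whose half-width was 1.83% to 10.8% of the level. The 4 G2/M genes used to check the gate (Ccnb1, Cdc20, Cenpf, Aurka) were all over 1.5-fold higher in 4N than in 2N cells, by a median log2 ratio of 0.83 with vehicle and 1.39 with CYC065. The label of lung tissue did not match lung epithelial markers: Nkx2-1 had 0 counts in every library, which with a floor of 3 counts allows up to 0.0545 CPM, and Sftpc, Sftpb and Napsa at most 5. Epithelial markers were also near 0, with Epcam at 0 or 1 count and Krt8 at 3 to 43. Mesenchymal and fibroblast genes were high in every library, with Vim at 2092 to 4765 CPM, Cdh2 at 116 to 165, Zeb1 at 104 to 149, Col1a1 at 2742 to 5733 and Pdgfra at 326 to 1542 CPM. Some of them moved with CYC065. Pdgfra was higher with CYC065 by log2 ratios of 1.10 in 2N, 1.31 in 4N and 1.65 in unsorted cells, and Col1a1 by 0.59 in unsorted cells (0.27 in 2N and 0.32 in 4N cells, not called). Vim was lower by log2 ratios of -0.91, -0.98 and -0.73 in the same order. Cdh2 and Zeb1 were not called. The part of these markers in the ratios below was not tested. Ptprc, a leukocyte gene, had at most 1 count, and Pecam1, an endothelial gene, 10 to 20.

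With CYC065, Plk4, Sass6 and Stil were lower in 2N, 4N and unsorted cells, Cep152 and Pcnt in 2N and unsorted cells, Ccp110 and Cep192 in 2N cells and Cep135 in unsorted cells. Cep97 and Neurl4 were called in none of these comparisons. A gene is called lower or higher here when 2 libraries differed by over 1.5-fold and the 95% counting interval of their ratio excluded equality. By this rule 7 of the 10 genes were lower with CYC065 in 2N cells, 3 in 4N cells and 6 in unsorted cells, and none was higher. With library size as the only scaling the counts were 5 in 2N and 2 in 4N cells. Ccp110 and Cep192 in 2N and Stil in 4N cells sat close to the line and were lost. Their log2 ratios also fell short of 1.5-fold in edgeR fits to the columns, with and without a replicate block, and in a DESeq2 fit. Among all genes tested, with at least 30 counts in a compared library, 26% were lower and 23.9% higher in 2N cells. The shares were 23.6% lower and 23.5% higher in 4N cells, and 26.1% lower and 20.4% higher in unsorted cells. The share of the 10 genes in 4N cells was thus close to that of all genes. The median log2 ratio of the 10 genes was -0.82 in 2N, -0.39 in 4N and -0.81 in unsorted cells, against -0.07, -0.03 and -0.07 over all genes tested. In such bulk libraries, fewer cells in a cell cycle phase and less RNA per cell cannot be told apart.

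**Figure D1:**
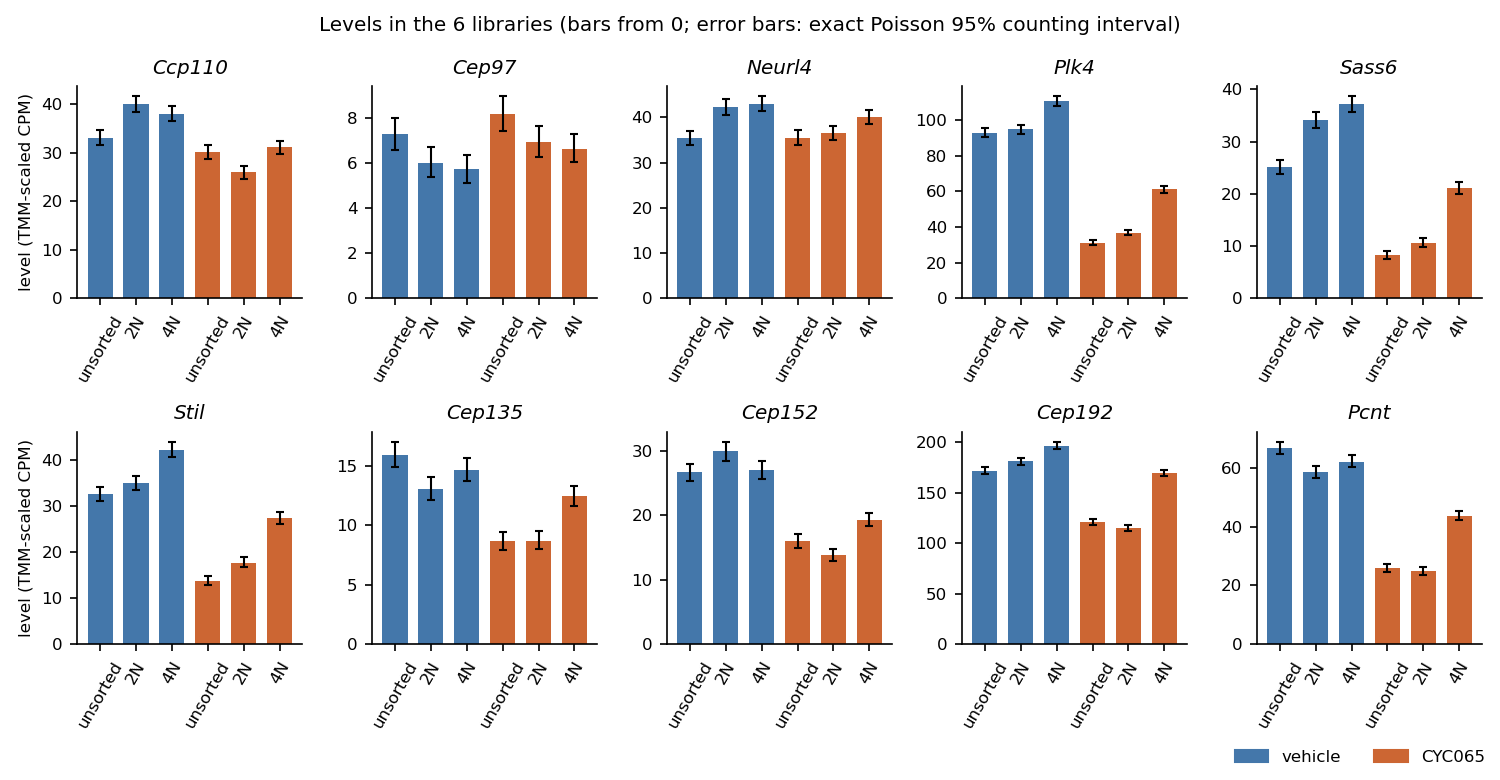
Levels of the 10 genes in the 6 libraries, in TMM-scaled CPM on a separate axis from 0 for each gene, with vehicle in blue and CYC065 in orange. Bars are single libraries and error bars are Poisson 95% counting intervals. Plk4 ran from 31.2 to 111 CPM, whereas Neurl4 stayed between 35.4 and 43.0 CPM.

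Among the cap genes, Ccp110 stood at 33.2 CPM in unsorted, 40.0 in 2N and 38.1 in 4N vehicle cells, and at 30.1 in unsorted, 25.96 in 2N and 31.1 in 4N CYC065 cells. The CYC065 library was the lower one in each of the 3 pairs, but the counting intervals of CYC065 4N and vehicle unsorted cells overlapped. Ccp110 was called lower in 2N cells only, at a log2 ratio of -0.62 (95% counting interval -0.72 to -0.53) or 1.54-fold. The ratio was -0.29 (-0.38 to -0.20) in 4N cells and -0.14 (-0.24 to -0.04) in unsorted cells. The 2N call sat close to the 1.5-fold line and was lost with library size as the only scaling, at -0.49. Among the genes tested, 24.7% had a lower ratio than Ccp110 in 2N cells and 46.3% in unsorted cells.

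Cep97, the partner of CP110 in the cap, had the lowest level of the 10 per kilobase of exon in every library. It stood at 7.28 CPM in unsorted, 6.01 in 2N and 5.73 in 4N vehicle cells, and at 8.18 in unsorted, 6.94 in 2N and 6.63 in 4N CYC065 cells. None of its ratios was called. Its log2 ratio of CYC065 to vehicle was 0.21 in 2N cells (-0.0048 to 0.42), 0.21 in 4N cells (0.0039 to 0.42) and 0.17 in unsorted cells (-0.03 to 0.36). Neurl4, a protein of the Neuralized family that binds CP110, stood at 35.4 CPM in unsorted, 42.3 in 2N and 43.0 in 4N vehicle cells. With CYC065 it stood at 35.5 CPM in unsorted, 36.6 in 2N and 40.0 in 4N cells. Its log2 ratio was -0.21 (-0.29 to -0.12) in 2N cells, -0.10 (-0.18 to -0.02) in 4N cells and 0.0042 in unsorted cells. With library size as the only scaling its sign turned in both 4N cells (0.038) and unsorted cells (-0.04).

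In the duplication core, Plk4, the kinase that licenses new centrioles, stood at 92.9 CPM in unsorted, 94.9 in 2N and 111 in 4N vehicle cells. With CYC065 it stood at 31.2 CPM in unsorted, 36.8 in 2N and 61.2 in 4N cells, each interval below those of all 3 vehicle libraries. Plk4 was 2.58-fold lower with CYC065 in 2N cells (log2 ratio -1.37, -1.44 to -1.29) and 2.98-fold lower in unsorted cells (-1.57, -1.65 to -1.496). In 4N cells it was 1.81-fold lower (-0.86, -0.91 to -0.80). Of the genes tested, 6.63% had a lower ratio than Plk4 in 2N cells, 15.2% in 4N cells and 5.47% in unsorted cells, positions that no scaling of the libraries alters.

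Sass6, which encodes the cartwheel protein SAS-6, stood at 25.1 CPM in unsorted, 34.2 in 2N and 37.1 in 4N vehicle cells, and at 8.21 in unsorted, 10.6 in 2N and 21.1 in 4N CYC065 cells. Its 2N ratio was the lowest of the 10 genes, at -1.69 (-1.82 to -1.56) or 3.22-fold lower, and its unsorted ratio was -1.61 (-1.76 to -1.46). In 4N cells the fall was 1.76-fold, at -0.82 (-0.91 to -0.72). Sass6 shares 1502 exon bases with the antisense gene Gm42893 and 389 with Trmt13 on the other strand. The kit keeps strand, but whether counting used it is not given in the sources used here. Gm42893 had 37 counts over the 6 libraries against 8031 for Sass6, and Trmt13 had 3239.

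Stil, whose protein links PLK4 to SAS-6, stood at 32.5 CPM in unsorted, 34.9 in 2N and 42.2 in 4N vehicle cells, and at 13.7 in unsorted, 17.7 in 2N and 27.3 in 4N CYC065 cells. It was 1.97-fold lower in 2N cells (-0.98, -1.09 to -0.87), 2.37-fold lower in unsorted cells (-1.24, -1.37 to -1.12) and 1.54-fold lower in 4N cells (-0.63, -0.71 to -0.54). The 4N call was lost with library size as the only scaling (-0.48). Cep135, which ties the cartwheel to the centriole wall, stood at 15.9 CPM in unsorted, 13.04 in 2N and 14.7 in 4N vehicle cells, and at 8.65 in unsorted, 8.70 in 2N and 12.4 in 4N CYC065 cells. It was called lower in unsorted cells, at -0.88 (-1.04 to -0.72). In 2N cells it missed the line narrowly (-0.58, -0.75 to -0.42), and in 4N cells its ratio was -0.24 (-0.38 to -0.10).

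Plk4, Sass6 and Stil were each lower in unsorted CYC065 cells than in both sorted CYC065 libraries, so the unsorted level did not lie between those of the sorted populations. With vehicle the unsorted level of Plk4 (92.9 CPM) and of Stil (32.5 CPM) had intervals overlapping those of 2N cells, while that of Sass6 was lower (25.1 against 34.2 CPM). Unsorted samples also hold cells outside both gates, whose part in these values was not tested.

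Of the scaffold genes, Cep152, the platform that binds PLK4, stood at 26.6 CPM in unsorted, 29.9 in 2N and 26.9 in 4N vehicle cells, and at 16.0 in unsorted, 13.8 in 2N and 19.3 in 4N CYC065 cells. It was called lower in 2N cells at -1.12 (-1.24 to -0.99) and in unsorted cells at -0.74 (-0.86 to -0.62). In 4N cells its ratio was -0.48 (-0.59 to -0.38). Cep192, which recruits both PLK4 and pericentriolar material, stood at 171 CPM in unsorted, 181 in 2N and 196 in 4N vehicle cells, and at 121 in unsorted, 115 in 2N and 169 in 4N CYC065 cells. It was called in 2N cells only, at -0.65 (-0.70 to -0.61), and this call was lost with library size as the only scaling (-0.52). Its ratios were -0.21 (-0.25 to -0.18) in 4N and -0.50 (-0.55 to -0.46) in unsorted cells.

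Pcnt, which encodes pericentrin, a scaffold of the pericentriolar material, stood at 66.7 CPM in unsorted, 58.6 in 2N and 62.2 in 4N vehicle cells, and at 25.9 in unsorted, 24.8 in 2N and 43.8 in 4N CYC065 cells. All 3 CYC065 intervals lay below the vehicle ones. Pcnt was 2.36-fold lower in 2N cells (-1.24, -1.33 to -1.15) and 2.57-fold lower in unsorted cells (-1.36, -1.45 to -1.27). In 4N cells the ratio was -0.51 (-0.58 to -0.44) and was not called.

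**Figure D2:**
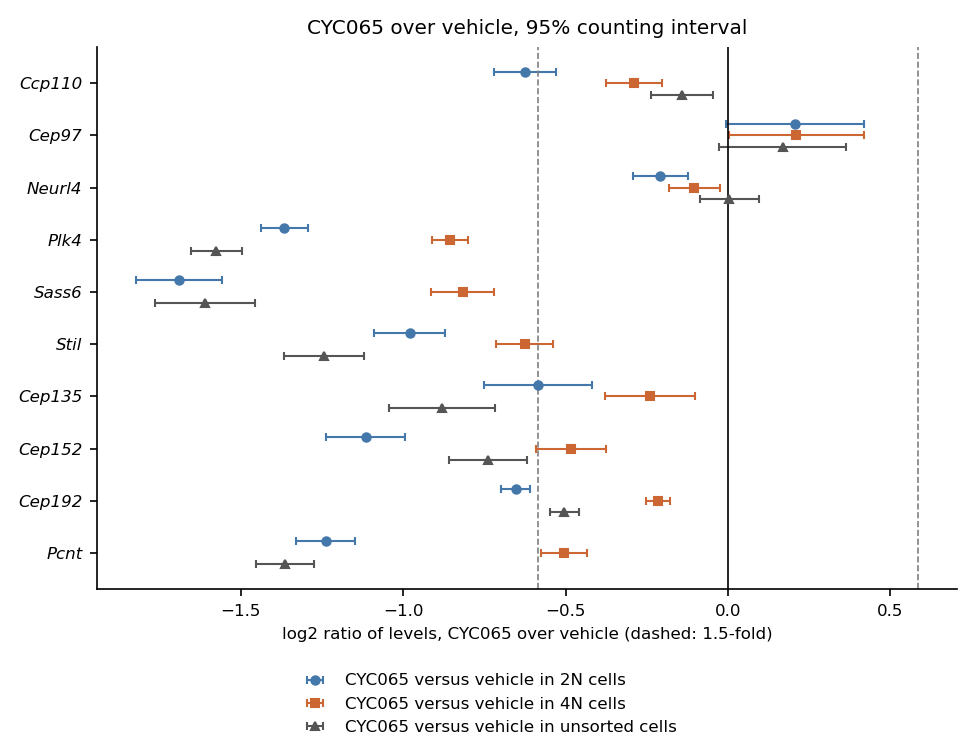
Log2 ratio of CYC065 over vehicle for each of the 10 genes in 2N (circles), 4N (squares) and unsorted cells (triangles), with 95% counting intervals. The dashed lines stand at 1.5-fold. Plk4, Sass6 and Stil lay beyond the line in all 3 comparisons, and Cep97 and Neurl4 in none.

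By the stricter rule of 2-fold, Plk4, Sass6, Cep152 and Pcnt were lower in 2N cells, none of the 10 genes in 4N cells, and Plk4, Sass6, Stil and Pcnt in unsorted cells. Beyond 2-fold in either direction were 28.2% of all genes tested in 2N cells, 25.6% in 4N cells and 25.7% in unsorted cells. The 4 G2/M genes were lower with CYC065 in the same 3 comparisons, by median log2 ratios of -1.34, -0.80 and -1.63. G2/M transcripts thus moved with the duplication genes, and their part in these ratios was not tested.

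Ratios of counts within a library need no scaling between libraries. For each read of Ccp110 there were 2.37 reads of Plk4 in 2N vehicle cells (95% counting interval 2.26 to 2.49) and 1.42 (1.33 to 1.52) in 2N CYC065 cells. In 4N cells the ratio was 2.91 (2.77 to 3.06) with vehicle and 1.97 (1.87 to 2.07) with CYC065, and in unsorted cells 2.80 (2.66 to 2.95) and 1.04 (0.969 to 1.11). The Sass6 to Ccp110 ratio went from 0.855 to 0.408 in 2N, from 0.975 to 0.677 in 4N and from 0.756 to 0.273 in unsorted cells. The ratio of Stil to Ccp110 went from 0.874 to 0.682 in 2N cells, from 1.11 to 0.879 in 4N cells and from 0.981 to 0.457 in unsorted cells. The ratio of Pcnt to Ccp110 went from 1.47 to 0.957 in 2N, from 1.63 to 1.41 in 4N and from 2.01 to 0.862 in unsorted cells. The ratio of Cep152 to Ccp110 went from 0.746 to 0.531 in 2N, from 0.708 to 0.620 in 4N and from 0.803 to 0.531 in unsorted cells. Its intervals in 4N cells just overlapped. Plk4, Sass6, Stil, Pcnt and Cep152 thus had fewer reads per Ccp110 read with CYC065 in each sort. For Cep135 that held in unsorted cells only (0.480 to 0.288), since its ratio was 0.326 with vehicle and 0.335 with CYC065 in 2N cells, and 0.385 and 0.399 in 4N cells, with overlapping intervals. The intervals of the Cep192 ratio also overlapped in 2N (4.52 and 4.43) and 4N cells (5.16 and 5.44). In unsorted cells the Cep192 ratio went from 5.17 to 4.02. Cep97 went the other way, from 0.150 to 0.267 reads per Ccp110 read in 2N cells, from 0.151 to 0.213 in 4N cells and from 0.219 to 0.272 in unsorted cells. Neurl4 reads per Ccp110 read were not computed, but they rose too. Its log2 ratio of CYC065 to vehicle lay above that of Ccp110 in 2N (-0.21 against -0.62), 4N (-0.10 against -0.29) and unsorted cells (0.0042 against -0.14). Ccp110 itself was lower with CYC065 in each sort, which raises both ratios. Within the core, Plk4 reads per Stil read went from 2.72 to 2.08 in 2N cells and from 2.63 to 2.24 in 4N cells.

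**Figure D3:**
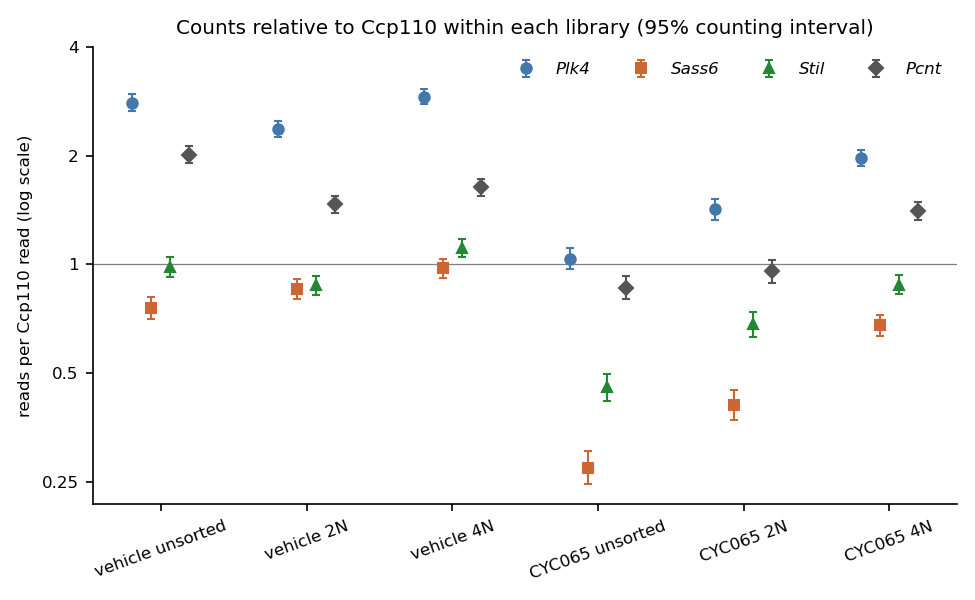
Counts of Plk4, Sass6, Stil and Pcnt per count of Ccp110 in each library, on a log axis, with 95% counting intervals. Each point is 1 library. For all 4 genes, each CYC065 ratio lay below the vehicle ratio of the same sort.

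Per kilobase of exon, which allows levels of different genes to be compared, Cep192 and Plk4 led in all 3 vehicle libraries. They stood at 13.7 and 13.6 CPM per kb in unsorted, 14.5 and 13.8 in 2N, and 15.7 and 16.2 in 4N vehicle cells. Their intervals overlapped in each of these libraries. With CYC065 Plk4 stood behind both Cep192 and Neurl4 in 2N cells (5.37 against 9.21 and 6.21 CPM per kb) and in unsorted cells (4.55 against 9.68 and 6.03). In 4N CYC065 cells it stood at 8.93 CPM per kb, behind Cep192 at 13.6. Ccp110 moved from below Stil, Sass6 and Cep152 in 2N vehicle cells (4.85 CPM per kb, overlapping Cep152 and Pcnt) to above all of them in 2N CYC065 cells (3.14, overlapping Stil). Cep97 was last in every library, at 0.625 to 0.892 CPM per kb, and Cep135 stood next to last. In unsorted CYC065 cells the intervals of Cep135 (1.20 CPM per kb) and Sass6 (1.34) overlapped.

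The 4N and 2N populations were then compared within each treatment. With vehicle, none of the 10 genes was called in either direction, where 3.38% of genes tested were higher and 4.75% lower in 4N cells, and 2.71% lay beyond 2-fold. The 10 log2 ratios of 4N to 2N ran from -0.15 to 0.27, with a median of 0.10. Plk4 stood at 0.22 (0.17 to 0.28), Stil at 0.27 (0.19 to 0.36) and Sass6 at 0.12 (0.03 to 0.21). Cep152 alone of the 10 had an interval wholly below 0, at -0.15 (-0.25 to -0.05). Ccp110 stood at -0.07 (-0.16 to 0.01).

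In CYC065 cells, 4 of the 10 genes were higher in 4N than in 2N cells: Sass6 at 0.99 (0.85 to 1.13), Pcnt at 0.82 (0.73 to 0.91), Plk4 at 0.73 (0.66 to 0.81) and Stil at 0.63 (0.52 to 0.74). The count was 3 without replicate 2, where Stil stood at 0.58. Among all genes tested 4.04% were higher and 4.77% lower, and 3.63% lay beyond 2-fold, where none of the 10 genes lay. Sass6 was the nearest to that line, at 1.99-fold. Cep192 (0.56), Cep135 (0.51) and Cep152 (0.48) were above 0 with intervals excluding it but were not called. Ccp110 stood at 0.26 (0.17 to 0.36), Neurl4 at 0.13 (0.05 to 0.21) and Cep97 at -0.07 (-0.26 to 0.13). The median was 0.53, against 0.02 over all genes tested.

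The difference between the log2 ratios of 4N to 2N cells, CYC065 less vehicle, was above 0 for all 10 genes (that of Cep97 only barely, and below 0 at -0.04 with DESeq2 size factors), with a median of 0.40 against 0.02 over all genes tested. It was called for 3 genes: Sass6 at 0.87 (0.71 to 1.03), Pcnt at 0.73 (0.62 to 0.85) and Cep152 at 0.63 (0.47 to 0.79). Of all genes tested, 5.76% were called higher, 4.97% lower and 5.29% beyond 2-fold, which held none of the 10. Plk4 stood at 0.51 (0.42 to 0.60), Cep192 at 0.44 (0.38 to 0.50), Stil at 0.36 (0.22 to 0.49), Cep135 at 0.34 (0.13 to 0.56) and Ccp110 at 0.33 (0.21 to 0.46). The intervals of Neurl4 (0.10, -0.01 to 0.22) and Cep97 (0.0042, -0.29 to 0.30) included 0. The same difference for the 4 G2/M genes ran from 0.27 to 0.91, so these genes moved with the duplication genes here too, and their part was not tested. The difference is built from the same 4 libraries as the ratios of CYC065 to vehicle in 2N and 4N cells and is not separate evidence.

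**Figure D4:**
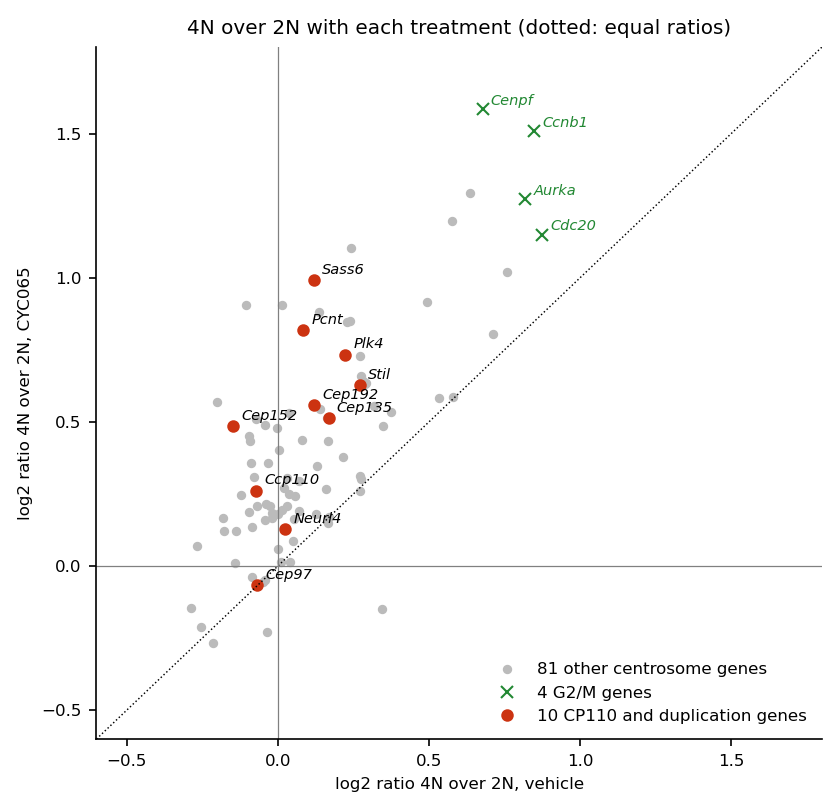
Log2 ratio of 4N over 2N cells with vehicle (horizontal) and with CYC065 (vertical) for the 10 genes in red, 81 other centrosome genes in grey and 4 G2/M genes as green crosses. The dotted line marks equal ratios. Sass6, Pcnt and Plk4 lay at 0.08 to 0.22 with vehicle and at 0.73 to 0.99 with CYC065.

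A wider set of 81 centrosome genes was listed by role. With CYC065, 35 of 81 (43.2%, against 26% of all genes tested) were lower and 2 higher in 2N cells, with a median log2 ratio of -0.49. In 4N cells 20 (24.7%, close to the 23.6% of all genes) were lower and 4 higher (median -0.22). In unsorted cells 40 (49.4%, against 26.1%) were lower and none higher (median -0.56). All 81 had enough counts to be tested. In 4N against 2N cells, 3 were higher with vehicle (3.70%, close to the 3.38% of all genes, median 0.04) and 16 with CYC065 (19.8%, against 4.04%, median 0.30), with none lower in either. The difference of these ratios was called higher for 9 (11.1%, against 5.76%) and lower for none.

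Genes that act on CP110 numbered 15, of which 7 were lower in 2N, 5 in 4N and 6 in unsorted CYC065 cells, with none higher. These are 46.7%, 33.3% and 40.0% of the list, against 26%, 23.6% and 26.1% of all genes tested. Ccnf encodes cyclin F, the F-box protein that marks CP110 for degradation in G2. It stood at 86.3 CPM in unsorted, 64.7 in 2N and 96.4 in 4N vehicle cells, and at 27.4 in unsorted, 24.1 in 2N and 55.3 in 4N CYC065 cells. Its unsorted log2 ratio of CYC065 to vehicle was -1.65 (-1.74 to -1.57), and it was higher in 4N than 2N CYC065 cells by 1.20 (1.11 to 1.29). Kif24, a kinesin that keeps CP110 at the mother centriole, was lower in unsorted CYC065 cells at -1.82 (-2.05 to -1.60). It was also lower with CYC065 in 2N cells (10.3 to 4.04 CPM) and in 4N cells (11.5 to 5.76 CPM). Usp33, the deubiquitinase that opposes cyclin F at CP110, was named after its values were seen. It ran from 65.0 to 73.0 CPM in the vehicle libraries and from 88.6 to 99.5 in the CYC065 libraries, at log2 ratios of 0.45 in 2N, 0.45 in 4N and 0.41 in unsorted cells, none past 1.5-fold. Ttbk2 of the same list also rose, from 50.5 to 56.1 CPM with vehicle to 67.0 to 75.0 with CYC065. So did 2700049A03Rik in 4N cells, from 30.2 to 44.0 CPM. Of the 15 genes, 12 had ratios below 0 in 2N and in 4N cells, and 10 in unsorted cells. What these changes do to CP110 was not tested. Cep78, which acts on the stability of CP110, had a difference of ratios of 0.77 (0.51 to 1.02).

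Of the 26 genes of centriole assembly and elongation, 10 were lower and 1 higher with CYC065 in 2N cells, where 26% of all genes were lower and 23.9% higher. In 4N cells 4 were lower (15.4%, against 23.6% of all genes) and 3 higher, and in unsorted cells 14 were lower (53.8%, against 26.1%) and none higher. In 4N against 2N CYC065 cells 11 were higher (42.3%, against 4.04%). Tedc1 and Tedc2, partners in the complex that works with the delta and epsilon tubulins, were lower in 2N cells at -1.92 (-2.10 to -1.75) and -1.67 (-1.83 to -1.51). In 4N cells they stood at -1.03 and -1.52, and Tedc1 at -1.61 in unsorted cells. Tubd1, delta tubulin, was lower at -1.46 (-1.79 to -1.14) in 2N and -1.32 (-1.59 to -1.07) in 4N cells. Tube1, epsilon tubulin, had the largest difference of 4N to 2N ratios of the 81, at 1.01 (0.75 to 1.27), from 10.4 CPM in 2N and 9.64 in 4N vehicle cells and 4.96 in 2N and 9.29 in 4N CYC065 cells. The same difference for Tedc1 was 0.89 (0.67 to 1.10).

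A few assembly genes were higher. Sfi1, a centrin-binding protein, was higher with CYC065 at 0.70 in 2N and 0.70 in 4N cells, and Cep44 (0.65) and Cep70 (0.63) were higher in 4N cells. Hyls1 (0.76) and Cep70 (0.71) were higher in 4N than in 2N vehicle cells. Both were also higher in 4N cells with CYC065, Hyls1 at 1.02 and Cep70 at 14.9 CPM against 8.51 in 2N cells.

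Of the 17 genes of pericentriolar material and satellites, 9 were lower (52.9%, against 26% of all genes) and 1 higher with CYC065 in 2N cells, 6 lower (35.3%, against 23.6%) and 1 higher in 4N cells, and 7 lower (41.2%, against 26.1%) in unsorted cells. The higher one was Mzt2, a small partner of the gamma-tubulin ring complex, at 0.85 (0.66 to 1.04) in 2N and 0.83 (0.67 to 1.00) in 4N cells. Nek2, the kinase that loosens the linker between centrosomes before mitosis, was lower with CYC065 at -1.83 (-1.93 to -1.73) in 2N, -1.17 (-1.24 to -1.11) in 4N and -1.92 (-2.01 to -1.83) in unsorted cells. It was higher in 4N than in 2N cells with both vehicle (0.63) and CYC065 (1.29). Of the 9 genes of the PLK4 platform and turnover, 3 were lower in 2N, 1 in 4N and 4 in unsorted cells. Wdr62, lower in 2N cells, was higher in 4N than in 2N CYC065 cells at 1.10 (0.96 to 1.25), with a difference of ratios of 0.86 (0.69 to 1.04). The 9 appendage genes had 3 lower in 2N, 2 in 4N and 6 in unsorted cells, and the 5 linker genes 3, 2 and 3. In lists this short 1 gene is a large share, and 2 of 9 or 3 of 9 lies near the 23.6% to 26.1% of all genes that were lower.

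**Figure D5:**
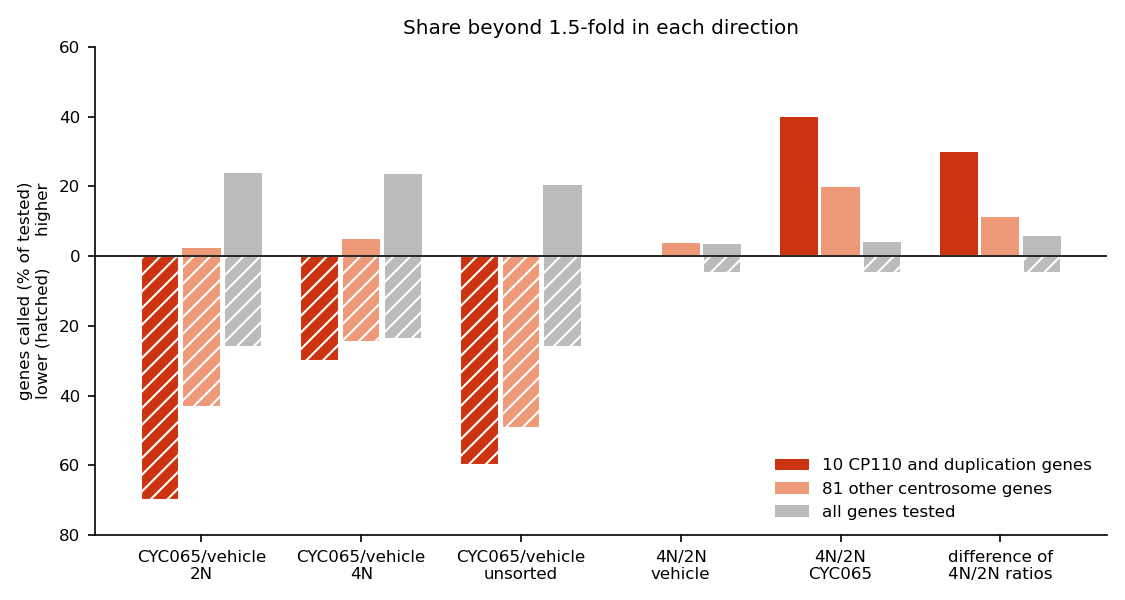
Share of genes called beyond 1.5-fold in each comparison, as a percentage of the genes tested, upward for higher and hatched downward for lower, for the 10 genes, 81 other centrosome genes and all genes tested. In 2N cells 26% of all genes were lower with CYC065, where 7 of the 10 and 35 of the 81 were.

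Likeness of pattern was measured as the root mean square difference between mean-centred log2 CPM over the 6 libraries, among 10814 genes with at least 100 counts in each. The genes nearest to Ccp110 were Atp6v0a2 (0.03), Hdhd2 (0.04) and Vkorc1l1 (0.05), and those nearest to Plk4 were Rangap1 (0.08), Cenpt (0.08) and Nucks1 (0.09). Among the 10 genes, the nearest to Plk4 were Stil (0.17), Sass6 (0.18) and Pcnt (0.18), with Ccp110 at 0.54 and Cep97 at 0.84. Those nearest to Ccp110 were Neurl4 (0.15) and Cep192 (0.15), with Sass6 the farthest at 0.64.

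In the annotation used for the counts (GENCODE M21, mm10), the 10 genes are protein coding, with 5768 to 12484 bases of exon. Ccp110 lies at chr7:118712552-118737024, Plk4 at chr3:40800019-40816883, Sass6 at chr3:116594982-116631004 and Stil at chr4:115000159-115043196, all on the plus strand. Pcnt lies at chr10:76351263-76442786 and Cep152 at chr2:125563088-125625113, both on the minus strand. Counts of 9 of the 10 genes were whole numbers in every column, and those of Plk4 were at most 0.05 from whole.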

How the data were processed

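Total RNA of ED1SQ4 cells was made into stranded libraries depleted of ribosomal RNA. The authors trimmed reads with Cutadapt 1.18, mapped them to mm10 with STAR 2.7.0f and deposited RSEM expected counts per GENCODE M21 gene. Per the labels' processing notes these were made with RSEM 1.3.1, and the methods of the study name another release. The 18 deposited columns of expected counts were summed to 6 libraries. Column totals within a library differed by at most 0.0681%. The ratio of chi-square to its degrees of freedom among columns was 0.992 to 1.02 over genes with whole counts, and 4.94 to 8.85 over genes with fractional counts, which RSEM shares between copies. Libraries were scaled by TMM (edgeR 4.0.16, factors 0.941 to 1.08). Ratios carry Clopper-Pearson 95% intervals from the conditional binomial, and differences of ratios a delta-method interval. PCR duplicates are not told apart from molecules, so intervals cover counting error only. The intervals and calls were checked on simulated counts. Alternatives were other scalings and filters, edgeR and DESeq2 1.42.0 fits to the columns, with and without a replicate block, and omission of each column. The fits took the parts of 1 library as replicates. A call in them needed over 1.5-fold and a low adjusted p-value, which takes in no spread between cultures.

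The named centrosome genes are up to 4 in each direction per comparison with the largest ratio, taken from called genes whose count reached 100 in one library or the other. The genes, lists and motifs were chosen with earlier results of these data known. Transcript levels say nothing of protein, such as CP110, that is controlled by degradation. No protein sequence was used here.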

Additional observations from a re-analysis of the deposited data

Results flagged for a closer look

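Cep152 was singled out because its 4N to 2N ratio ran in opposite directions with the 2 treatments. The log2 ratio of 4N to 2N cells was -0.15 (95% counting interval -0.25 to -0.05) with vehicle and 0.48 (0.36 to 0.61) with CYC065. Each condition is 1 library, so the difference between the treatments, 0.63 on the log2 scale, was not tested against replicate error.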

How the results depend on the processing

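Of the 60 ratios of the 10 genes, 56 kept their sign under every other scaling, fit and omission of a column, and 4 did not. With library size only, Neurl4 turned from -0.10 to 0.038 in 4N and from 0.0042 to -0.04 in unsorted cells, the latter also without replicate 2. Cep97 in 4N to 2N CYC065 cells turned from -0.07 to 0.0044 without replicate 3, and its difference of ratios (0.0042) ran from -0.04 to 0.07. Library size only moved the median of all genes from -0.07 to 0.07 in 2N and from -0.03 to 0.11 in 4N cells. It moved the median of the 10 genes to -0.68 in 2N and -0.24 in 4N cells. The 2N median was -0.73 in edgeR fits to the columns with and without the replicate block, -0.72 in the DESeq2 fit and -0.65 among genes with whole counts only, which leaves out Plk4. Calls changed in 0 to 4 of the 60 ratios per setting, all near 1.5-fold. Ccp110 (2N), Cep192 (2N) and Stil (4N CYC065 to vehicle) were lost under library size only (-0.49, -0.52 and -0.48), both edgeR fits and the DESeq2 fit. Stil was lost in 4N cells without replicate 3 (-0.56) and in 4N to 2N CYC065 cells without replicate 2 (0.58), and Cep152 in the difference of ratios under DESeq2 (0.58). Cep135 was gained in 2N cells when sorted libraries were scaled alone (-0.61) and without replicate 2 (-0.71). Over the 45 pairs of same-numbered columns, r ran from -0.37 to 0.51, with a median of -0.0066. The median was near 0, but single pairs deviated together or in opposite directions, and why was not tested. These correlations took in well-counted genes with whole and with fractional counts. The columns differed by no more than sampling noise in genes with whole counts only, so the 2 checks cover different genes. With 1 library per condition, the spread between cultures is unknown, and counts under 500, as for Cep97, leave intervals of about 0.4 on the log2 scale.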
